A study of Mus musculus with 2 samples.

Results

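Serotonin is made and stored by a short chain of gene products, and the 7 genes described here are that chain together with genes that mark its cells. The group holds Tph1, Tph2, Slc18a1, Ddc, Lmx1a, Trpa1 and Reg4, chosen by symbol from the 46983 genes counted, and all 7 were present in the files. In GRCm38 Tph1 lies at chr7:46644641-46672537, Tph2 at chr10:115078641-115185022, Ddc at chr11:11814101-11898144, Slc18a1 at chr8:69037711-69089235 and Trpa1 at chr1:14872648-14918862, all on the minus strand. Lmx1a at chr1:167689237-167848741 and Reg4 at chr3:98222156-98236748 are on the plus strand. They were read by UMI counts (unique molecular identifiers, each standing for 1 captured transcript) in sorted tdTomato+ islet cells of mice at postnatal day 9. The library labelled Isl1CKO had the genotype Neurod1 Cre/+; Isl1f/f, and the control library had the genotype Neurod1 Cre/+; Isl1f/+. Both therefore carried the Neurod1-driven Cre and the reporter, and the control carried 1 floxed allele of Isl1, a LIM-homeodomain gene of endocrine cells, with the other left intact. Cre reaches only cells that have used Neurod1, a pan-endocrine gene. Each library pooled 6 animals, so there was 1 library per genotype and no difference below has a replicate check or a test. The 95% intervals below are exact ones for counts and cover the error of counting alone, not that between animals. Those of CPM and ratios also leave out the uneven spread of UMIs over cells.

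The Isl1CKO-labelled library held 3020 cells with 78068592 UMIs and the control library 2504 cells with 72548173 UMIs, at medians of 24906.5 and 22638.5 UMIs per cell. The 8 main islet hormone genes took 12.2% of UMIs in Isl1CKO-labelled cells and 53.3% in control cells, and the median gene had a log2 CPM ratio of 0.58 (CPM, UMIs per 1000000 of a library or class). Ratios are therefore given on CPM and relative to that median gene, and CPM taken over the other genes only shifts every log2 ratio by −0.91. Isl1 itself was counted at 461 CPM in the Isl1CKO-labelled library and 253 CPM in the control library, higher rather than lower in the library labelled as its knockout. These 3′ counts do not check the deletion, since the removed exons are not given in the sources used here, and every direction below rests on the labels. All 8 beta-cell, 7 alpha-cell and 4 delta-cell markers listed were detected in both libraries, while Gcg and Sst stood at 1183 and 125 CPM in Isl1CKO-labelled cells, against 54512 and 15083 CPM in control cells. Classes of cells were set by the share of a cell's own UMIs: insulin-high (Ins1 and Ins2, 20%), Gcg-high (10%), Sst-high (5%), Ttr-high (5%) and Chgb-high (4%). In the Isl1CKO-labelled library they held 383, 2, 6, 1445 and 494 cells, with 755 remaining, and in the control library 898, 617, 539, 113 and 33 cells, with 436 remaining. Of the 113 control Ttr-high cells, 101 were also Gcg-high and the other 12 were counted among the remaining cells. The called cells of both libraries shared 4 barcodes.

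Serotonin is built from tryptophan. Tryptophan hydroxylase adds a hydroxyl group in the rate-limiting step, aromatic amino acid decarboxylase removes the carboxyl group, and a vesicular monoamine transporter loads the product into granules. In the gut this chain defines the enterochromaffin cell, the serotonin-secreting enteroendocrine cell. In mouse islets, serotonin is known for its part in the beta-cell expansion of pregnancy, and enterochromaffin-like cells have been described in stem-cell-derived islet cultures.

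The start regions of 3 members that were counted together in a single control cell (below) are shown first, because that cell held the highest count of each in the control. The 250 bases before each RefSeq start (GRCm38.p6) are printed 5′ to 3′ on the gene's strand. Tph1 has 2 starts that lie 5160 bases apart on chromosome 7, at chr7:46672538-46672787 and chr7:46667378-46667627 on the minus strand. Reg4 is shown from chr3:98221906-98222155 and Lmx1a from chr1:167689308-167689557, both on the plus strand. Capitals mark matches on either strand to TAATTA, the core of many homeodomain sites, or to CAAGTG, a core of NK2-class homeodomain sites. The windows were also searched for the TATA box motif TATAAA.
Tph1, upstream start: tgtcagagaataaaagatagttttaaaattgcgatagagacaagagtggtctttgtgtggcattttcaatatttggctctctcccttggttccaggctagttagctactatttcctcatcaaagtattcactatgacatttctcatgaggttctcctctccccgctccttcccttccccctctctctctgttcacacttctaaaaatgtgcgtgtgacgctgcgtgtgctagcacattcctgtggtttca
Tph1, downstream start: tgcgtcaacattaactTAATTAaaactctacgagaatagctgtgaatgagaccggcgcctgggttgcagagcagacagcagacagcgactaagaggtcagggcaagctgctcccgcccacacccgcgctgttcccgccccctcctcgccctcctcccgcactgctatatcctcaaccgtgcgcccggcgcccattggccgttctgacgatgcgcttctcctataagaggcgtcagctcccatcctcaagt
Reg4: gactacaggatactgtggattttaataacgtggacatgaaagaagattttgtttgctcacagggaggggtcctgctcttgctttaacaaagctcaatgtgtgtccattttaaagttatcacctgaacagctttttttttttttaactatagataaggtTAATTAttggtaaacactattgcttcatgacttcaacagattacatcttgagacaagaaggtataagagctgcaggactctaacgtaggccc
Lmx1a: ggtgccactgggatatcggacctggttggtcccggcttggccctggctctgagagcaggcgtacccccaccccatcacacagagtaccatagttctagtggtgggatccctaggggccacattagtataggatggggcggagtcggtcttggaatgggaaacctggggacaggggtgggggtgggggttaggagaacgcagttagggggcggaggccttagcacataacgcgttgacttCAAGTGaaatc
TAATTA occurred once before the downstream Tph1 start and once before the Reg4 start, and CAAGTG once before the Lmx1a start. The upstream Tph1 window held none of the 3 motifs. Among all 32851 RefSeq promoter windows of this length, TAATTA occurred in 4.84%, CAAGTG in 11.6% and TATAAA in 12.4%. The counts come from 3′ ends of transcripts and do not tell which Tph1 start was used. Starts were found for 5 of the 7 members, and Slc18a1 and Trpa1 had none.

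Tph1, the tryptophan hydroxylase of gut and pineal gland, was higher in the library labelled Isl1CKO and lay in many cells there. It had 788 UMIs in 294 cells of the Isl1CKO-labelled library, against 162 UMIs in 22 cells of the control library. This is 9.74% (8.70% to 10.8%) of Isl1CKO-labelled cells and 0.879% (0.551% to 1.33%) of control cells. The level was 10.1 CPM (9.40 to 10.8) in Isl1CKO-labelled cells and 2.23 CPM (1.90 to 2.60) in control cells. The log2 CPM ratio was 2.18 (1.93 to 2.43), or 1.60 relative to the median gene. With each cell thinned to 4000 UMIs, 2.38% of Isl1CKO-labelled cells and 0.200% of control cells kept a Tph1 UMI. No cell with mesenchymal markers held a Tph1 UMI, in 20 such Isl1CKO-labelled cells (median 7876.5 UMIs) or 39 such control cells (median 7993 UMIs), where the 3-count limit on a share of cells with a UMI is 15% and 7.69%.

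The spread over cells differed in kind between the libraries. The 3 control cells richest in Tph1 held 70, 50 and 20 UMIs, which is 86.4% of the control total, and the next held 4. The 3 richest Isl1CKO-labelled cells held 65, 56 and 23 UMIs, which is 18.3% of their library's total. In the Isl1CKO-labelled library 29 cells held 6 or more Tph1 UMIs, 24 of them Ttr-high and 5 Chgb-high, with 1 cell in both classes and 1 among the remaining cells. In the control 3 cells did, all 3 Chgb-high. Leaving out the 1 cell richest in Tph1 from each library gave a log2 ratio of 2.87 (2.55 to 3.20), and leaving out 3 gave 4.77 (4.15 to 5.45), with 8.26 CPM in Isl1CKO-labelled cells and 0.304 CPM in control cells. The control level, and with it the size of the ratio, thus rested on 3 cells. Near-empty control droplets had 0.961 CPM of Tph1 (0.312 to 2.24), which is the level within free RNA alone. The share of free RNA in a cell was not measured, so this does not tell how much of the control level came from it.

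**Figure D1:**
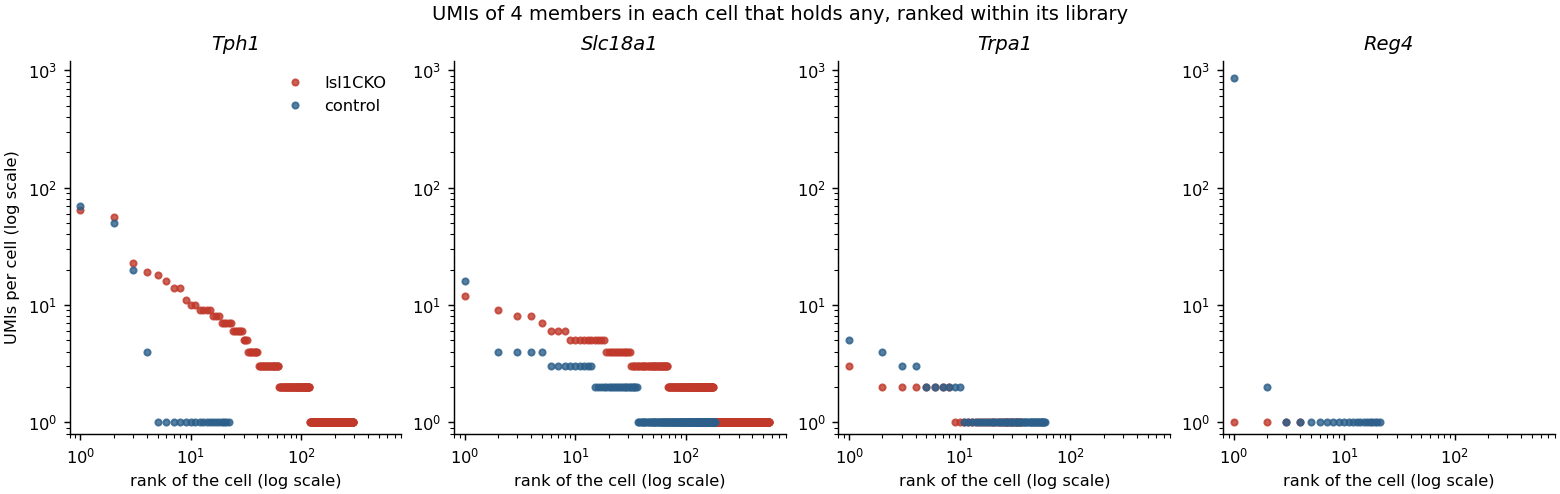
UMIs per cell (log scale) of Tph1, Slc18a1, Trpa1 and Reg4 against the rank of the cell within its library (log scale); each point is 1 cell with at least 1 UMI, Isl1CKO in red and control in blue. Tph1 has a UMI in 294 Isl1CKO cells and 22 control cells, of which 3 control cells hold more than 4, and a single control cell holds 864 Reg4 UMIs.

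By class, most Tph1 UMIs of the Isl1CKO-labelled library lay in Ttr-high cells, the largest class, with 1445 of the 3020 cells. Ttr-high cells held 604 UMIs, or 76.6% of the total, with a UMI in 15.5% (13.7% to 17.5%) of them. Their level was 13.8 CPM (12.7 to 14.95), beside 14.4 CPM (12.1 to 16.9) in Chgb-high cells, and these neighbouring levels have overlapping intervals. Of the 147 Tph1 UMIs in Chgb-high cells, 56 came from 1 cell, and the share of cells with a UMI was 8.70% there. Lower levels followed in remaining cells, at 3.73 CPM (2.701 to 5.03), and in insulin-high cells, at 2.11 CPM (1.43 to 3.00), again with overlapping intervals. Thinned to 4000 UMIs, 3.67% of Ttr-high, 2.02% of Chgb-high, 1.32% of remaining and 0.783% of insulin-high cells kept a UMI. The insulin-high share was 3 cells.

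Ttr-high cells of both libraries gave 604 Tph1 UMIs in 1445 Isl1CKO-labelled cells and 9 UMIs in 113 control cells, or 13.8 and 3.18 CPM. The log2 ratio between them was 2.12 (1.18 to 3.25). The classes differ in make-up, since nearly all control Ttr-high cells were also Gcg-high. Control Gcg-high cells as a whole held 15 Tph1 UMIs in 12 cells, at 1.10 CPM. In insulin-high cells Tph1 had 31 UMIs in 15 Isl1CKO-labelled cells and 5 UMIs in 5 control cells, or 2.11 and 0.117 CPM. These counts were too low for the size rule, and with cells in 1 class only the Isl1CKO-labelled level was 0.732 CPM. The control Sst-high value, 50 UMIs at 6.04 CPM, came from 1 cell that was also Chgb-high. In Chgb-high cells the order was the opposite, at 14.4 CPM in the Isl1CKO-labelled library. Control Chgb-high cells had 115 CPM (89.7 to 145) without the cell richest in Reg4, from 2 cells with a UMI.

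Within Isl1CKO-labelled Ttr-high cells, those of female animals had 20.02 CPM of Tph1 (17.95 to 22.3) and those of male animals 10.3 CPM (9.08 to 11.7). The shares of cells with a UMI were closer, at 17.2% (14.1% to 20.5%) of 565 female and 14.0% (11.6% to 16.6%) of 795 male cells, and after thinning at 3.89% and 3.52%. The cell with 65 UMIs was in the female part. Cycling Ttr-high cells had 10.7 CPM (8.03 to 13.9), against 14.2 CPM (13.1 to 15.5) in those not cycling. Over single Isl1CKO-labelled cells, the 10 genes whose levels followed Tph1 most were Ttyh1, Vgf, Fam20a, Pcp4l1, Gpx2, Tmem212, Crem, Lrpap1, Gmds and Ssr2, with Pearson correlations of 0.20 down to 0.14. The points are cells of 1 library that share its depth and background, and correlations of this size in sparse counts are weak.

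**Figure D2:**
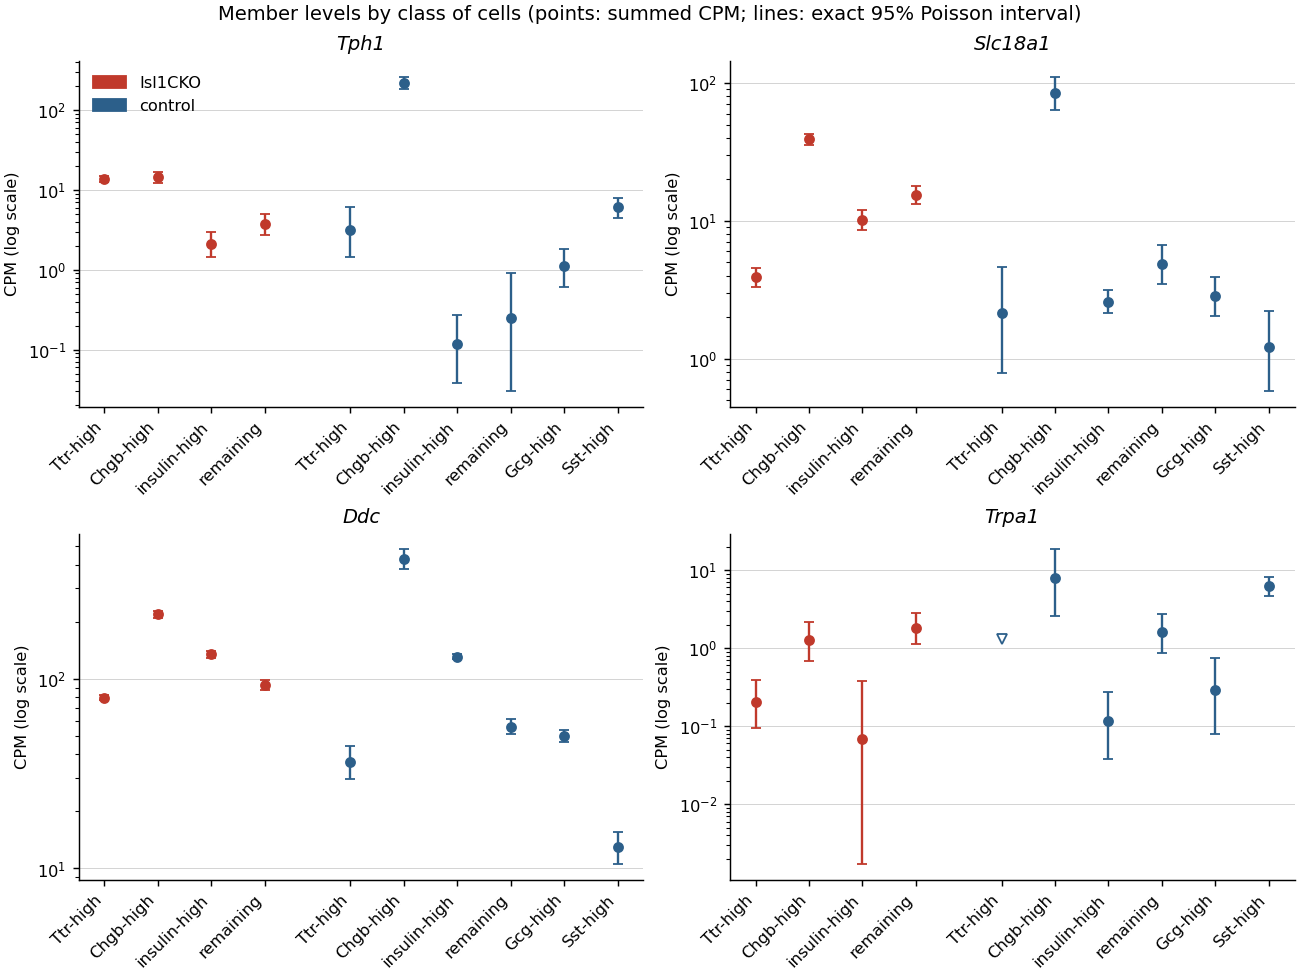
Summed CPM (log scale) of Tph1, Slc18a1, Ddc and Trpa1 in classes of cells, Isl1CKO on the left in red and control on the right in blue; points are class sums and lines exact 95% Poisson intervals, and an open triangle marks the upper bound where no UMI was counted. Tph1 is highest in 33 control Chgb-high cells, where 3 cells hold all 140 UMIs, and lies near 14 CPM in both Ttr-high and Chgb-high Isl1CKO cells.

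Tph2, the tryptophan hydroxylase of serotonergic neurons, was nearly absent from both libraries at this depth. It had 2 UMIs in 2 Isl1CKO-labelled cells and 13 UMIs in 11 control cells, of which 7 lay in Sst-high cells. Both sums were under the minimum of 50 UMIs for a comparison.

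Ddc, the aromatic amino acid decarboxylase, was the most abundant member and was found in all large classes. It had 8421 UMIs in the Isl1CKO-labelled library and 7042 UMIs in the control library, or 108 and 97.1 CPM. The log2 CPM ratio was 0.15 (0.11 to 0.20), −0.43 relative to the median gene, and taken outside the hormone genes the levels were 123 CPM in Isl1CKO-labelled cells and 208 CPM in control cells, so the direction depends on the scaling. A UMI was found in 60.5% (58.7% to 62.2%) of Isl1CKO-labelled cells and 48.9% (46.9% to 50.9%) of control cells. In mesenchymal cells, which should lack it, 2 of 20 Isl1CKO-labelled cells and 2 of 39 control cells held a UMI, and near-empty control droplets had 49.4 CPM.

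Ddc was at like CPM in insulin-high cells of both libraries and differed in the other classes. Insulin-high cells had 135 CPM (129 to 141) in the Isl1CKO-labelled library and 131 CPM (128 to 134.5) in the control library, and 296 and 422 CPM outside the hormone genes. Ttr-high cells had 79.7 CPM (77.1 to 82.4) in the Isl1CKO-labelled library and 36.4 CPM (29.7 to 44.2) in the control library, a log2 ratio of 1.13 (0.85 to 1.43) and 0.65 relative to the median gene. Remaining cells had 93.1 CPM (87.6 to 98.9) in the Isl1CKO-labelled library and 56.0 CPM (50.9 to 61.4) in the control, a log2 ratio of 0.73 (0.57 to 0.90). Chgb-high cells had the highest level in each library, 219 CPM (210 to 228) in 494 Isl1CKO-labelled cells and 427 CPM (378 to 481) in 33 control cells. There the Isl1CKO-labelled level was the lower one. The lowest large class was that of control Sst-high cells at 12.9 CPM (10.6 to 15.6), below control Gcg-high cells at 50.1 CPM (46.4 to 54.0). Over single cells, the genes that followed Ddc most in the Isl1CKO-labelled library were Iapp, Gng12, Chgb, Ins2 and Ins1, at 0.32 to 0.30. In the control they were Slc2a2, the glucose transporter of beta cells, Ins2, Ins1, Ociad2 and Fam151a, at 0.48 to 0.45, and a hormone that fills a cell's UMIs shares its depth with every other gene of that cell.

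Slc18a1, vesicular monoamine transporter 1, was higher over all called cells in the library labelled Isl1CKO and followed Chgb, a granin of secretory granules. It had 878 UMIs in 563 Isl1CKO-labelled cells and 249 UMIs in 182 control cells, or 11.2 CPM (10.5 to 12.0) and 3.43 CPM (3.02 to 3.89). The log2 CPM ratio was 1.71 (1.51 to 1.92), or 1.13 relative to the median gene. The UMIs were spread over cells, the richest holding 12 in the Isl1CKO-labelled library and 16 in the control, and without the 3 richest cells of each library the log2 ratio was 1.81. Taken outside the hormone genes the levels were 12.8 CPM in Isl1CKO-labelled cells and 7.34 CPM in control cells, a log2 ratio of 0.80 that is under 2-fold. After thinning, 4.80% of Isl1CKO-labelled cells and 1.16% of control cells kept a UMI. None of the mesenchymal cells held a UMI.

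The highest Slc18a1 level in each library was in Chgb-high cells. It was 39.0 CPM (35.3 to 43.0) in Isl1CKO-labelled Chgb-high cells, of which 42.7% held a UMI, and 85.1 CPM (64.0 to 111) in control Chgb-high cells, of which 69.7% held one. Without the control cell richest in Reg4 the control value was 62.5 CPM (44.2 to 85.8). In this class the Isl1CKO-labelled level was thus lower than the control level, unlike over all cells. Chgb-high cells were 494 of the Isl1CKO-labelled cells and 33 of the control cells, and they carried 45.4% and 21.7% of each library's Slc18a1. In insulin-high cells the level was 10.2 CPM (8.65 to 12.0) in the Isl1CKO-labelled library and 2.59 CPM (2.13 to 3.12) in the control, a log2 ratio of 1.98 (1.61 to 2.35), or 1.56 relative to the median gene. In remaining cells it was 15.4 CPM (13.2 to 17.8) in the Isl1CKO-labelled library and 4.86 CPM (3.46 to 6.64) in the control, a log2 ratio of 1.66 (1.15 to 2.20). Ttr-high cells, the largest Tph1 class, had little of it, at 3.89 CPM (3.32 to 4.52) in the Isl1CKO-labelled library and 2.12 CPM (0.779 to 4.62) in the control. Near-empty control droplets had 2.11 CPM of Slc18a1 (1.06 to 3.78), an interval that overlaps those of control insulin-high and Ttr-high cells. That is the level within free RNA alone. The share of free RNA in a cell was not measured, so the overlap does not tell how much of these control levels came from it.

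Isl1CKO-labelled male cells had 14.7 CPM of Slc18a1 and female cells 7.404 CPM, against 3.45 and 4.23 CPM in control male and female cells. The log2 CPM ratio between the libraries was 0.81 (0.39 to 1.25) in female cells and 2.09 (1.84 to 2.34) in male cells, so female cells alone were under 2-fold; sex was read from each cell's Xist and Y-linked transcripts. Single-cell levels followed Chgb most in both libraries, at 0.31 in the Isl1CKO-labelled and 0.29 in the control library. Atp6v1b2, a subunit of the proton pump that acidifies granules, came next in the Isl1CKO-labelled library at 0.29 and stood at 0.28 in the control. Its gene begins inside the span of Slc18a1 on the opposite strand of chromosome 8 (chr8:69088646-69113711 and chr8:69037711-69089235, GRCm38), and the annotated exons share 0 bases. The strand setting of the authors' counting is not given in the sources, and reads outside the annotated exons could then belong to either gene. Gria3, Amigo2 and Nt5e completed the list in the Isl1CKO-labelled library, and Fev, Tle1 and Synpr in the control.

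Lmx1a, a LIM-homeodomain regulator of enterochromaffin cells, was at the limit of detection. It had 2 UMIs in 1 Isl1CKO-labelled cell, which was Chgb-high, and 5 UMIs in 2 control cells, 4 of them in 1 cell. The second control cell, with 1 UMI, carried mesenchymal markers. No comparison was made.

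Reg4, a regenerating-family lectin of gut enteroendocrine cells, had the lowest ratio of the group, and that ratio rested on 1 cell. It had 4 UMIs in 4 Isl1CKO-labelled cells and 885 UMIs in 21 control cells, a log2 CPM ratio of −7.90 (−9.77 to −6.53). A single control cell held 864 of the 885 UMIs, or 97.6%, and the next held 2. Without the richest cell of each library, 3 UMIs remained in Isl1CKO-labelled cells and 21 in control cells, a log2 ratio of −2.91 (−5.30 to −1.17). Near-empty control droplets held 39 Reg4 UMIs, or 7.49 CPM (5.33 to 10.2), more than the 0.290 CPM of the control cells without that cell. The Isl1CKO-labelled matrix listed only filtered barcodes, so droplets of that kind were not analysed there.

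That control cell carried most of the listed enterochromaffin markers together. It had 26143 UMIs, rank 1072 of 2504 by depth, and was not called a doublet by Scrublet. Beside 864 Reg4 UMIs it held 70 of Tph1, 26 of Ddc, 16 of Slc18a1, 5 of Trpa1 and 4 of Lmx1a. It also held 190 UMIs of Tac1, the tachykinin precursor gene of enterochromaffin cells, 41 of Ucn3, 140 of Afp and 5 of Slc18a2, vesicular monoamine transporter 2. It held 1226 UMIs of Pyy and 321 of Sst, and 0 of the mesenchymal and mast-cell markers. Duct markers had 52 UMIs in it (3 of 5 markers) and beta-cell markers 267 (5 of 8). The same cell held 1 or 2 UMIs each of acinar, endothelial, leukocyte and neural markers. In all, 18 of 20 listed enterochromaffin markers had a UMI in it, against at most 13 in any other cell of either library. It was the only cell with all 6 of Tph1, Lmx1a, Slc18a1, Ddc, Reg4 and Tac1. In the Isl1CKO-labelled library 9 cells had 4 of them and 0 had more, and no other control cell had 4 or more. The control cell with all 6 was singled out after its values were seen. Because it was counted in the control Chgb-high class, that class had 221 CPM of Tph1 with it and 115 CPM (89.7 to 145) without it, 427 and 403 CPM of Ddc, and 1365 and 3.29 CPM of Reg4.

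The cells richest in Tph1 in the library labelled Isl1CKO held no Reg4, Lmx1a or Tac1, and neither did the second and the third such cell of the control. The first Isl1CKO-labelled cell, with 65 Tph1 UMIs of 34332, was Ttr-high with 3460 Ttr UMIs, and held no UMI of Ddc, Slc18a1, Reg4, Lmx1a or Tac1. The second, with 56 of 31970, held 2319 Chgb, 2499 Iapp, 91 Cartpt and 19 Ddc UMIs, and no Slc18a1. The third, with 23 of 22698, held 1278 Ttr UMIs and no Ddc or Slc18a1. In these 3 cells 5, 9 and 7 of the 20 enterochromaffin markers had a UMI. The second control cell, with 50 Tph1 UMIs of 43490, held 2830 Sst, 1404 Ppy, 1892 Chgb, 13 Ddc and 2 Slc18a1 UMIs. The third control cell, with 20 of 18653, held 1619 Chgb, 71 Cartpt, 12 Ddc and 1 Slc18a1 UMIs, and so shared Chgb, Cartpt and Ddc with the second Isl1CKO-labelled cell. These 2 control cells had 13 and 10 of the markers. The median over all cells was 7 markers in the Isl1CKO-labelled library and 5 in the control. Tph1, by which these cells were picked, is itself on the list.

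Among all 294 Isl1CKO-labelled Tph1 cells, 203 also held Ddc, or 69.0%, against 59.5% of the cells without Tph1. The Tph1 cells were deeper, at a median of 29700 UMIs against 24014. Slc18a1 was found in 42 of them, or 14.3%, against 19.1% of the cells without Tph1, and Slc18a2 in 8. All of Tph1, Ddc and either transporter were found in 35 cells. Ddc with a transporter was thus in 11.9% of Tph1 cells, against 14.6% of the cells without Tph1. Within classes this order held only in Chgb-high cells, at 27.9% of Tph1 cells and 37.5% of the others. It was the opposite in Ttr-high (7.14% and 5.81%), insulin-high (40.0% and 25.0%) and remaining cells (15.4% and 10.0%). Thinned to 4000 UMIs, 25 of 72 Tph1 cells held Ddc, or 34.7%, against 27.1% of the thinned cells without Tph1. Of the same 72 cells 0 held Slc18a1, while 4.92% of the thinned cells without Tph1 did. Within Ttr-high cells, 8.04% of Tph1 cells and 9.58% of the others held Slc18a1, and within Chgb-high cells 32.6% and 43.7%. The order was the opposite in insulin-high cells, at 6 of 15 Tph1 cells (40.0%) against 25.8% of the others, and in remaining cells, at 7 of 26 Tph1 cells (26.9%) against 16.2% of the others. In the control all 3 Chgb-high cells with Tph1 held both Ddc and Slc18a1.

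Trpa1, an irritant-sensing cation channel of enterochromaffin cells, was rare and, within the control library, lay chiefly in Sst-high cells. It had 45 UMIs in 36 Isl1CKO-labelled cells and 76 UMIs in 59 control cells, or 0.576 CPM (0.420 to 0.771) and 1.05 CPM (0.825 to 1.31). The log2 CPM ratio over all cells was −0.86 (−1.43 to −0.31), under 2-fold, and −1.44 relative to the median gene, past 2-fold. The ratio was also past 2-fold outside the hormone genes, at −1.77, and in male cells, at −1.17 (−1.93 to −0.46). In female cells, with 19 Isl1CKO-labelled and 7 control UMIs, the sign was the opposite at 0.38 (−0.94 to 1.87). Of the 76 control UMIs 52, or 68.4%, lay in Sst-high cells, at 6.28 CPM (4.69 to 8.23) and in 8.16% of those cells. The 5 UMIs of control Chgb-high cells were all in the cell richest in Reg4. The Isl1CKO-labelled library had 6 Sst-high cells with 2 Trpa1 UMIs between them, so the number of such cells moves with the library value, and its part in the result was not tested. Remaining cells had 1.82 CPM (1.13 to 2.79) in the Isl1CKO-labelled library and 1.62 CPM (0.863 to 2.77) in the control, which overlap. In the control the genes that followed Trpa1 most over cells were Sst, Hhex, a delta-cell regulator, Adam22, Dscam and Cd24a, at 0.22 to 0.20.

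Counted by a size rule of 2-fold on CPM, and requiring 50 UMIs where the CPM was higher, 5 of the 7 members could be compared over all cells. Tph1 and Slc18a1 were past the rule as higher, where 16.9% of 14420 genes were, and Reg4 as lower, where 3.52% were. Without the single control cell, Reg4 had 21 control UMIs, under the minimum of 50, and could not be compared. Relative to the median gene, Tph1 and Slc18a1 were higher, where 5.21% of genes were, and Trpa1 and Reg4 lower, where 6.82% were. Their median log2 CPM ratio was 0.15, beside 0.58 over all genes. In insulin-high cells 2 members could be compared, and Slc18a1 was past the rule as higher on CPM, where 11.0% of genes were (2.54% lower), and relative to the median gene, where 4.97% were (4.73% lower). In remaining cells it was again Slc18a1 of 2 compared, where 9.94% of genes were higher and 3.34% lower on CPM, and 3.45% higher and 5.08% lower relative to the median gene. In Ttr-high cells 3 were compared, of which Tph1 and Ddc were past the rule on CPM, where 18.3% of genes were (1.22% lower), and Tph1 relative to the median gene, where 8.29% were (3.35% lower). Chgb-high cells were not compared by this rule.

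**Figure D3:**
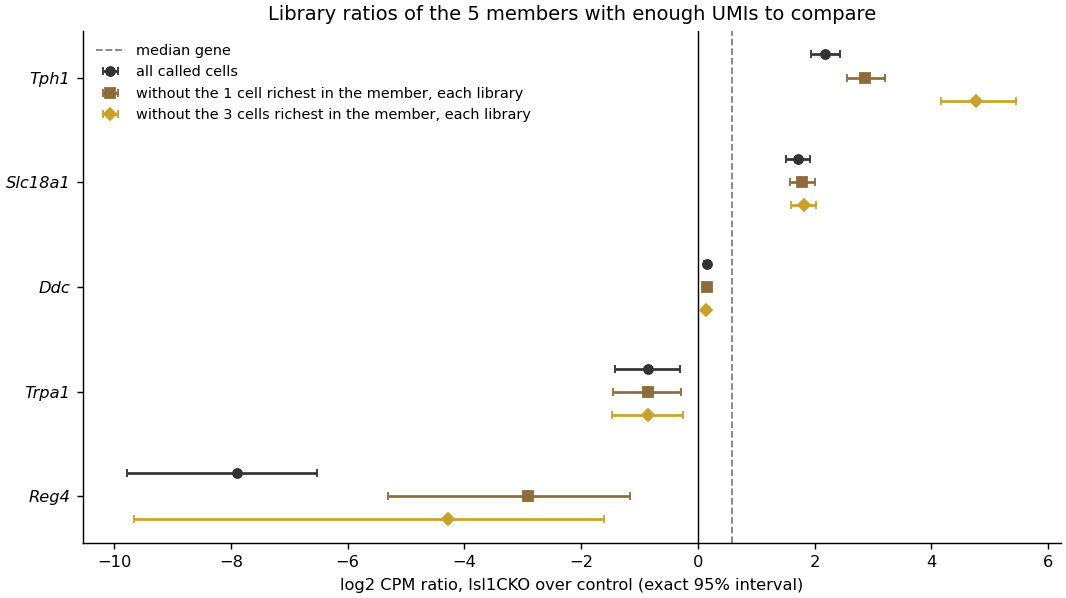
Log2 CPM ratio, Isl1CKO over control, of the 5 members compared (x axis; exact 95% intervals), with all cells and without the 1 or 3 cells of each library richest in the member; the dashed line is the median gene. Slc18a1 and Ddc hardly move. Tph1 moves to 2.87 and Reg4 to −2.91 without 1 cell, and they move to 4.77 and −4.28 without 3 cells.

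Genes around the chain were read from lists, whose counts stand beside 16.9% of all genes higher and 3.52% lower on CPM, and 5.21% and 6.82% relative to the median gene. All 8 genes of tetrahydrobiopterin, the cofactor of tryptophan hydroxylase, could be compared, and 3 were at least 2-fold higher on CPM and 0 lower, with 1 higher relative to the median gene. Gchfr, the regulator of the first enzyme, had 60.1 CPM in Isl1CKO-labelled cells and 11.8 CPM in control cells, a log2 ratio of 2.35 (2.25 to 2.46). Its levels by class were 121 CPM in Chgb-high, 114 CPM in remaining, 73.7 CPM in insulin-high and 26.2 CPM in Ttr-high Isl1CKO-labelled cells, against 58.3, 19.9, 11.9 and 10.6 CPM in the same control classes. Qdpr and Pcbd1, which recycle the cofactor, had 236 and 381 CPM in Isl1CKO-labelled cells and 93.3 and 188 CPM in control cells. Gch1, the first enzyme itself, had 176 CPM in Isl1CKO-labelled cells and 124 CPM in control cells, a log2 ratio close to that of the median gene at 0.50.

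Of 9 amine storage and transport genes 6 could be compared, and 1 was past the rule. Slc22a2, an organic cation transporter, had 4.43 CPM in Isl1CKO-labelled cells and 1.34 CPM in control cells. Slc18a2 had 0.692 CPM in Isl1CKO-labelled cells and 0.510 CPM in control cells, a log2 ratio of 0.44 with an interval that spans 0 (−0.19 to 1.08), and Slc6a4, the serotonin reuptake transporter, had 0 UMIs in the Isl1CKO-labelled library and 3 in the control. Of 6 genes of serotonin breakdown and conversion 4 could be compared, and Maob, a monoamine oxidase, was lower at 22.6 CPM in Isl1CKO-labelled cells, against 51.4 CPM in control cells. Of 14 serotonin receptor genes 1 reached the minimum, Htr5b, at 3.18 CPM in Isl1CKO-labelled cells and 1.05 CPM in control cells. Among 7 enzymes of other transmitters 3 could be compared on CPM: Hdc, which makes histamine, was higher at 9.43 CPM in Isl1CKO-labelled cells, against 3.69 CPM in control cells, and Th, the rate-limiting enzyme of catecholamines, lower at 4.61 CPM in Isl1CKO-labelled cells, against 11.5 CPM in control cells. Gad1, the third, had 3.64 CPM in Isl1CKO-labelled cells and 6.46 CPM in control cells. Relative to the median gene, Hdc was under 2-fold and Th and Gad1 were lower.

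Of 13 regulators of serotonergic and enterochromaffin cells 10 could be compared, and 3 were higher and 1 lower on CPM, and 2 and 1 relative to the median gene. Fev, an ETS factor of serotonergic neurons and endocrine progenitors, had 222 CPM in Isl1CKO-labelled cells and 30.8 CPM in control cells, and Lmx1b, the LIM-homeodomain relative of Lmx1a, had 7.37 CPM in Isl1CKO-labelled cells and 1.90 CPM in control cells. In Isl1CKO-labelled cells Fev was at 420 CPM in Chgb-high, 333 CPM in remaining, 192 CPM in Ttr-high and 79.5 CPM in insulin-high cells, against 363, 78.8, 39.3 and 7.55 CPM in the same control classes. Rfx6 was higher on CPM at 68.9 CPM in Isl1CKO-labelled cells, against 30.8 CPM in control cells, and Mnx1 was lower at 2.68 CPM, against 10.2 CPM in control cells. Gata2 and Gata3, factors of serotonergic neurons, had 1 and 0 UMIs in the Isl1CKO-labelled library and 0 and 1 in the control.

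Of the 20 enterochromaffin markers, which include 6 of the members, 19 could be compared, and 9 were higher and 3 lower on CPM, or 9 and 4 relative to the median gene, where 16.9% and 3.52% of all genes were on CPM and 5.21% and 6.82% relative to the median gene. The higher ones beyond the members and Fev were Chga, Chgb, Tac1, Slc38a11, Rab3c and Amigo2. The granin genes Chga and Chgb had 25361 and 17922 CPM in Isl1CKO-labelled cells, against 6994 and 2771 CPM in control cells. Slc38a11, Rab3c and Amigo2 had 7.54, 24.5 and 66.6 CPM in Isl1CKO-labelled cells, against 1.76, 6.35 and 16.4 CPM in control cells. Tac1 had 29.4 CPM in Isl1CKO-labelled cells and 6.02 CPM in control cells, and 190 of its 437 control UMIs were in the single cell described above. In the Isl1CKO-labelled library Tac1 was at 91.5 CPM in Chgb-high and 82.3 CPM in remaining cells but at 8.94 CPM in Ttr-high cells, the class that held most Tph1. The lower ones were Reg4, Piezo2, a mechanosensitive channel, and Ucn3, urocortin 3, at 12.3 CPM in Isl1CKO-labelled cells and 90.9 CPM in control cells. Of its UMIs, 891 of 963 in the Isl1CKO-labelled library and 6487 of 6592 in the control lay in insulin-high cells. Of 10 sensing channels and receptors 8 could be compared, with Gpbar1, a bile acid receptor, higher and Trpm5, Adra2a, Piezo2 and Trpc4 lower. Trpm5, a taste-cell and beta-cell cation channel, had 2.47 CPM in Isl1CKO-labelled cells and 27.5 CPM in control cells, and Adra2a, an adrenergic receptor, had 2.77 CPM in Isl1CKO-labelled cells and 19.2 CPM in control cells. The other 3 were rare, with Gpbar1 at 69 and 21 UMIs, Piezo2 at 35 and 66 UMIs and Trpc4 at 21 and 57 UMIs in Isl1CKO-labelled and control cells. Of 6 other Reg genes 1 could be compared, Reg1, at 120 CPM in Isl1CKO-labelled cells and 102 CPM in control cells. Of 9 gut hormone genes and 1 receptor gene 8 could be compared, and 6 were higher (5 relative to the median gene) and 2, Pyy and the receptor gene Glp1r, lower. Sct, the secretin gene, had 344 CPM in Isl1CKO-labelled cells and 8.12 CPM in control cells. Cck and Gast had 40.9 and 108 CPM in Isl1CKO-labelled cells, against 3.54 and 14.0 CPM in control cells.

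**Figure D4:**
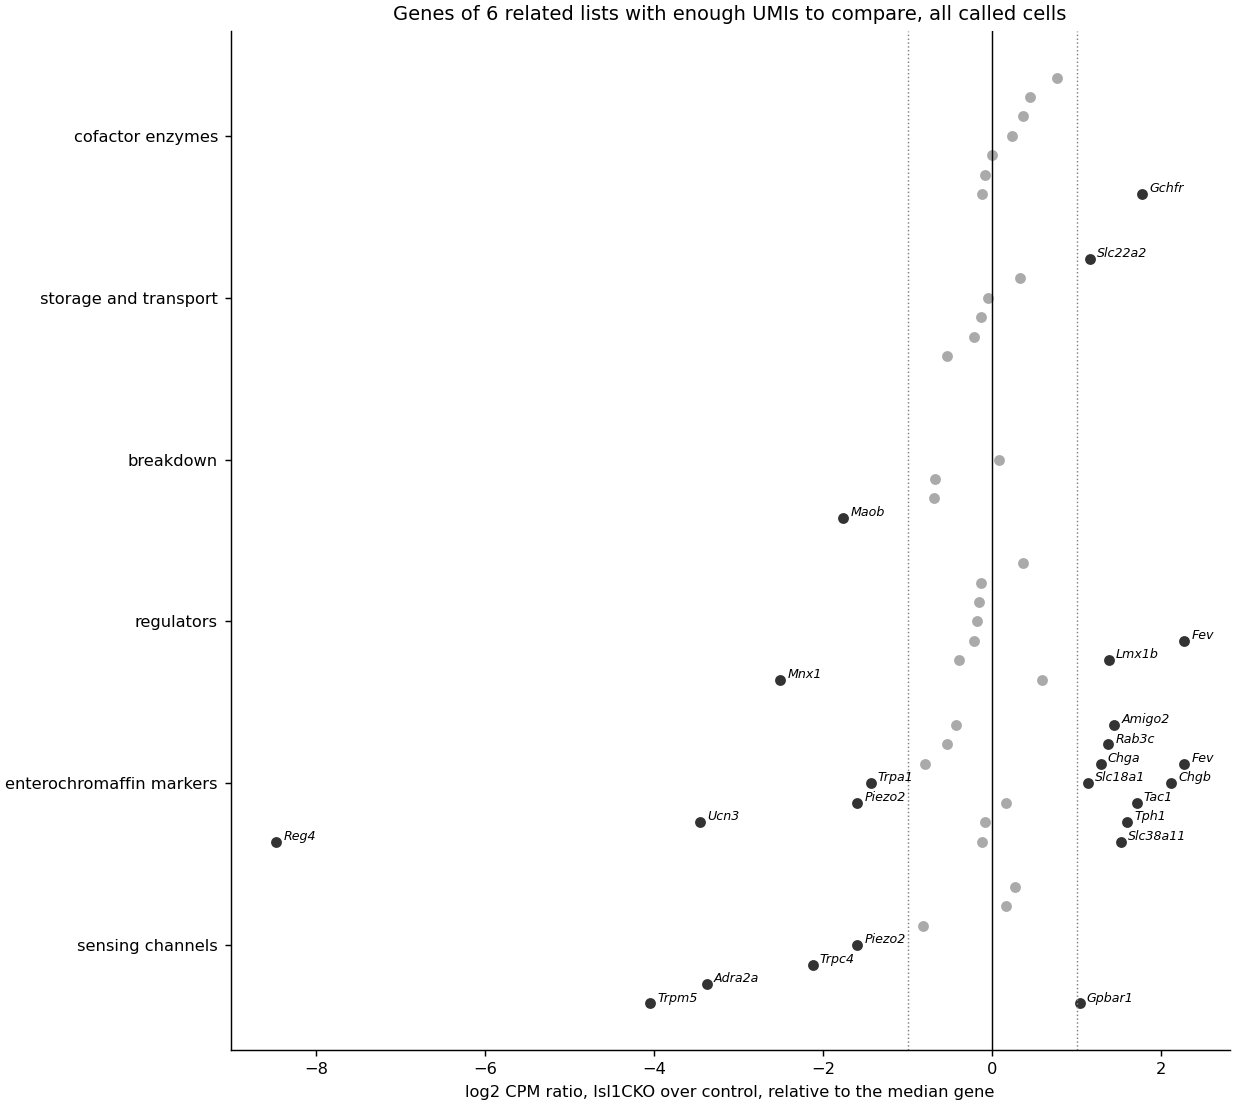
Log2 CPM ratio, Isl1CKO over control, relative to the median gene (x axis) for genes of 6 lists (y axis) with enough UMIs to compare; dark named points are past 2-fold (dotted lines). Gchfr and Fev stand at the higher end, Reg4, Trpm5 and Ucn3 at the lower end, and most cofactor enzymes lie near 0.

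Mast cells also make serotonin, and their markers were read beside Tph1. Of 6 mast-cell markers 2 were detected in the Isl1CKO-labelled library and 1 in the control. Cpa3 had 1 UMI in the Isl1CKO-labelled library and 0 in the control, and Tpsb2, Mcpt4, Ms4a2 and Fcer1a were at 0 in both. Kit, which islet cells also express, had 30.7 CPM in Isl1CKO-labelled cells and 7.13 CPM in control cells, and made up nearly all of the summed marker level.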

How the data were processed

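Islet cells carrying tdTomato were sorted from pooled mice and read with 10x 3′ v3.1 kits, with actinomycin D during dissociation, per the labels' protocols. The values are UMI counts per gene and barcode, as deposited by the authors; GRCm38.p6, STAR 2.7.3a with STARsolo, and Seurat 4.3.0.1 stand in the submitters' processing notes, with no gene annotation release named there. The Isl1CKO matrix held only filtered barcodes, while the control matrix listed 6794880 barcodes, so control cells were called here from 6825 UMIs upward, 1/10 of the UMIs at the 99th percentile among the 3000 largest barcodes. No column was left unused (0).

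UMIs were summed per library and per class (with scanpy 1.11.5, scipy 1.17.1, numpy 2.4.6 and pandas 2.3.3 under Python 3.11.15). CPM used exact Poisson, ratios exact conditional binomial, and shares Clopper-Pearson intervals. Since each genotype was 1 library, differences were not tested and have no p-value. The ratio step was tested on simulated data. Shares were also taken after thinning to 4000 UMIs (seed 7). Scrublet called 7 Isl1CKO and 62 control cells doublets; they were kept. Sex was read from Xist and Y-linked UMIs, and cycling from 2 or more UMIs of cycle genes in thinned cells. Genes named are the members, list genes past 2-fold, and for likeness the 10 genes (Tph1) or 5 genes with the highest Pearson correlation. The members and lists were chosen with earlier results of these data known. Positions and sequences are from GRCm38 annotation and RefSeq.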

Additional observations from a re-analysis of the deposited data

Results flagged for a closer look

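Control barcodes of at least 1000 UMIs that lay below the cell threshold entered no comparison, and they held members above the limit that a count of 0 allows. Over these 872 barcodes Tph1 stood at 1.82 CPM, Slc18a1 at 14.6 CPM, Ddc at 47.3 CPM, Trpa1 at 2.27 CPM and Reg4 at 5.00 CPM, where 3 UMIs would be 1.36 CPM. Barcodes of that kind were not analysed for the Isl1CKO-labelled library.

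The sign of the ratio between the libraries differed between the sexes for 2 members, and neither difference was tested. Ddc had a log2 CPM ratio of −0.03 (−0.12 to 0.07) in female cells and 0.26 (0.20 to 0.31) in male cells, a difference of −0.28. Trpa1 had 0.38 (−0.94 to 1.87) in female cells and −1.17 (−1.93 to −0.46) in male cells, a difference of 1.54. Trpa1 also had −0.78 (−6.34 to 2.38) in insulin-high cells, from 1 Isl1CKO-labelled and 5 control UMIs, and 0.17 (−0.90 to 1.29) in remaining cells, from 21 and 13 UMIs. That difference of −0.95 was not tested either.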

How the results depend on the processing

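No paired analysis was possible because each genotype is 1 pooled library. Under other settings 43 member ratios stayed within their counting interval and 26 moved beyond it. The members past 2-fold on CPM, Tph1, Slc18a1 and Reg4, kept their direction wherever a value was given. Ddc and Trpa1 were under 2-fold on CPM and had no called direction to turn. Ddc was negative in 3 of 14 settings and Trpa1 positive in 1 of 14. The log2 ratio of Tph1 (2.18) was 1.82 after thinning, 2.96 in female cells, 1.76 in male cells, 1.27 outside the hormone genes and 1.60 relative to the median gene. Without the control cell richest in Reg4 it was 2.99, without the 1 cell richest in Tph1 of each library 2.87, and without 3 such cells 4.77. Slc18a1 (1.71) was 1.93 after thinning, 0.81 in female cells, 2.09 in male cells, 0.80 outside hormones and 1.13 relative to the median gene. Ddc (0.15) was 0.54 after thinning, −0.025 in female cells, 0.26 in male cells, −0.76 outside hormones, −0.43 relative to the median gene and 0.49 as a mean of per-cell CPM. Trpa1 (−0.86) was 0.38 in female cells, −1.77 outside hormones and −1.44 relative to the median gene. Reg4 (−7.90) was −5.69 after thinning, against a floor of 3 UMIs in the Isl1CKO-labelled library; it was −2.50 without the richest control cell, −2.91 without 1 cell of each library and −4.28 without 3. The last 3 values rest on at most 21 control UMIs, under the minimum of 50, so the Reg4 call is lost there. Female cells gave no Reg4 value. Genes at least 2-fold higher (2444) were 935 after thinning, 468 outside hormones, 752 with the median gene at 0, 1349 by per-cell means and 4202 with no minimum count. Genes at least 2-fold lower (508) were 283 after thinning, 199 in female cells, 1588 outside hormones, 983 with the median gene at 0, 971 with a minimum of 10 UMIs and 1645 with no minimum. The settings that leave out single cells were chosen after seeing the data, as was the control Ttr-high class. The causes were not tested. Depth limits Tph2 and Lmx1a, which had at most 13 UMIs in a library.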
